A study of Mus musculus with 6 samples.

Results

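To determine how the genes for interleukin-1 (IL-1) cytokines and the inflammasome were expressed in microglia that overexpress PGC-1α, the probes of 10 genes were read out of a whole-genome array comparison. The genes were Il1a, Il1b, Il1rn, Il18, Nlrp3, Aim2, Pycard, Casp1, Casp4 and Gsdmd. Every non-control probe whose transcript accession belonged to one of these symbols was taken, which gave 14 probes of 10 genes, out of 56605 probes and 23462 named genes on the array. The choice of probes used no measured value.

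Microglia, the resident macrophages of the brain, were isolated from male C57BL/6 mice aged 10 weeks and profiled at rest on 1-colour Agilent arrays, with 3 arrays of each group. PGC-1αf/f mice, the controls, carry a PGC-1α construct with loxP sites and an eGFP reporter. In mPGC-1α mice this construct was combined with a Cre recombinase that is inserted into the Cx3cr1 locus and becomes active with tamoxifen. The controls were littermates without Cre, and per the methods experiments followed tamoxifen dosing by an interval for induction. Whether the control mice of these arrays received tamoxifen is not stated in the sources used here, although for stroke surgery the study describes both genotypes after tamoxifen. If these controls did not receive it, tamoxifen and genotype cannot be told apart. Cx3cr1 is also transcribed by macrophages and monocytes outside the brain, so the driver is not exclusive to microglia, and the study gives the interval as the means to limit overexpression to them. Cells were selected with magnetic beads through the receptor P2RY12 after removal of myelin and debris. No label states whether the 3 arrays of a group came from separate mice or from pools, so p-values measure the spread between these samples, which may be technical.

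IL-1α and IL-1β, encoded by Il1a and Il1b, act on the same receptor and start inflammatory transcription in the cells they reach, while the IL-1 receptor antagonist, encoded by Il1rn, occupies that receptor without signalling. Pro-IL-1β and pro-IL-18 have to be cut before they are active. The inflammasome does this: a sensor such as NLRP3 or AIM2 assembles with the adaptor ASC (Pycard) and activates caspase-1, which matures both cytokines and cuts gasdermin D into a pore-forming fragment. In microglia and other macrophages, transcription of Il1b is a separate and inducible step that precedes maturation of the protein.

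On the arrays, 27025 to 30272 of 59305 spots were well above background, 0 were saturated, and the array's 75th percentile of signal lay between 1012 and 2138 intensity units. Values are given as log2 signal minus that percentile, and they are not comparable between probes. Before the results, 2 arrays have to be singled out. PGC-1αf/f replicate 3 correlated with the other arrays at a mean of 0.928, whereas the remaining arrays had means of 0.962 to 0.972. On the array of mPGC-1α replicate 3, 0 of 7 Y-linked probes were well above background, although the sample is labelled male, and the other arrays had 5 or 6. The probe of Xist, a transcript of females, was well above background on that array and also on replicate 2 of both groups. All arrays lay on 1 slide, with PGC-1αf/f in row 1 and mPGC-1α in row 2, so slide row and group cannot be told apart. All 13 microglial marker genes, P2ry12 and Tmem119 among them, were well above background on all 6 arrays. Of the 7 with complete values, 2 were higher in mPGC-1α samples and the median difference was -0.13. Cx3cr1, the locus that holds Cre, was at -0.51 without overlap (limma adjusted p 0.194). The controls lack Cre, so Cre and its insertion at this locus cannot be told apart from PGC-1α overexpression. The targeted gene, Ppargc1a, gave 0.19, -0.44 and -1.21 in PGC-1αf/f arrays and 0.57, 0.28 and 0.08 in mPGC-1α microglia (probe A_51_P279038). The groups overlapped, and the difference of 0.80 (SE 0.35) did not pass the test (limma adjusted p 0.306). It was 0.44 without PGC-1αf/f replicate 3 and 1.14 without PGC-1αf/f replicate 1.

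Within the IL-1 and inflammasome genes, the 2 probes of Il1b and 1 probe of Il1rn were higher in mPGC-1α microglia by 2.04 to 4.20 on the log2 scale, 1 probe of Aim2 was lower by 0.72, and the other tested probes differed by 0.50 or less in either direction. None of these differences passed an adjusted p of 0.05. Of the 14 probes, 12 exceeded background on every array of one group or both and were tested, and they covered 9 of 10 genes. Limma placed 0 of the 12 past the threshold over all tested probes, where 0.0792% of 25257 probes passed (smallest adjusted p of a member 0.176). At an unadjusted p under 0.05, 4 of 12 were found (33.3%), 3 of them higher (Il1rn included, which was tested only through mPGC-1α microglia) and 1 lower, beside 16.7% of all tested probes (7.53% higher and 9.21% lower). An increase of at least 1 on the log2 scale was reached by 3 of 12, both Il1b probes and that of Il1rn, beside 3.71% of all tested probes. Decreases are not counted in either share. The 2 Il1b probes measure 1 gene. Counted by gene with the brightest probe, 1 of 7, Il1b, had an unadjusted p under 0.05 and 1 of 7 did not overlap, beside 13.9% and 22.9% of all genes. Of the 10 probes with a value on every array, 3 had groups that did not overlap (30%), 2 of them higher in mPGC-1α microglia and 1 lower, beside 25.2% of all probes (11.4% higher and 13.7% lower). In sign the 12 probes were evenly split, with 6 higher and 6 lower and a median difference of 0.013, and across all tested probes 49.7% were higher and the median was -0.0026. With each gene represented by its brightest probe, the 7 genes with complete values had a median of -0.041, and all genes had 0.028.

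**Figure D1:**
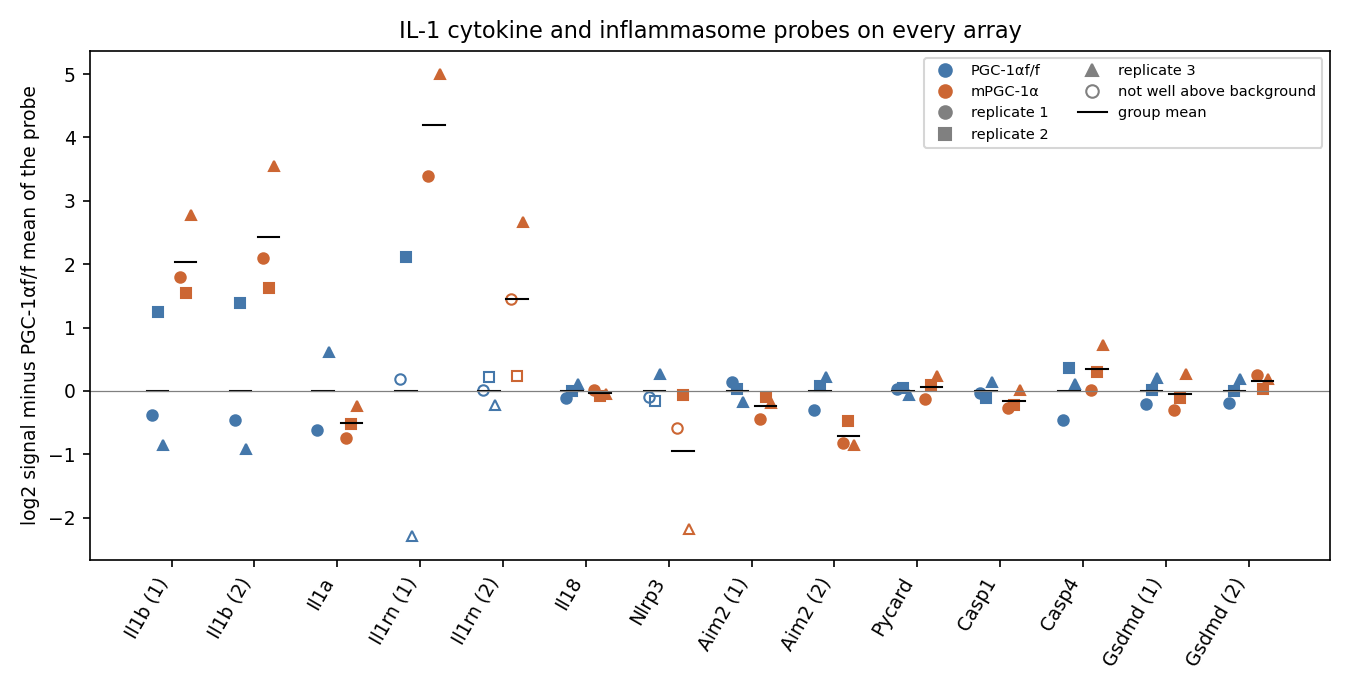
Log2 signal of each of the 14 probes on every array, as the difference from the probe's PGC-1αf/f mean (y axis), with blue for PGC-1αf/f, orange for mPGC-1α and the marker shape for the replicate number. The mPGC-1α points of both Il1b probes lie above all PGC-1αf/f points, those of the second Aim2 probe lie below them, and the points of Il18, Pycard, Casp1 and Gsdmd overlap.

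First, the cytokine genes were compared. The brighter probe of Il1b (A_51_P212782) gave -0.020, 1.60 and -0.50 in PGC-1αf/f arrays and 2.16, 1.90 and 3.14 in mPGC-1α microglia. All 3 mPGC-1α arrays lay above all 3 controls, but control replicate 2 stood well apart from the other controls and 0.30 below the lowest mPGC-1α array. The means were 0.36 ± 1.102 and 2.40 ± 0.66 (SD, n = 3 each), a difference of 2.04 (SE 0.57, 95% interval 0.68 to 3.40) or 4.11-fold (limma adjusted p 0.194). In the order of differences over all tested probes it ranked 213 of 25257. The second probe of the gene (A_66_P114500) gave -1.88, -0.038 and -2.34 against 0.68, 0.20 and 2.14. It had the same order of arrays within each group as the first probe, and its groups did not overlap. It differed by 2.42 (SE 0.70, 95% interval 0.76 to 4.09), or 5.36-fold (limma adjusted p 0.201).

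The size of the Il1b difference rested on particular arrays. Without PGC-1αf/f replicate 3, the first probe differed by 1.61 (limma adjusted p 0.285), without mPGC-1α replicate 3 by 1.67 (0.370), without replicate 3 of both groups by 1.24 (0.400), and with arrays weighted by their agreement with the fit by 1.02 (0.256). For the second probe these values were 1.96, 1.86, 1.40 and 1.16. Within slide column 1, which held replicate 1 of both groups, the probes differed by 2.18 and 2.56, and within slide column 2, which held replicate 2 of both, by 0.30 and 0.23. Each column holds 1 array of a group, so neither value has a replicate check.

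**Figure D2:**
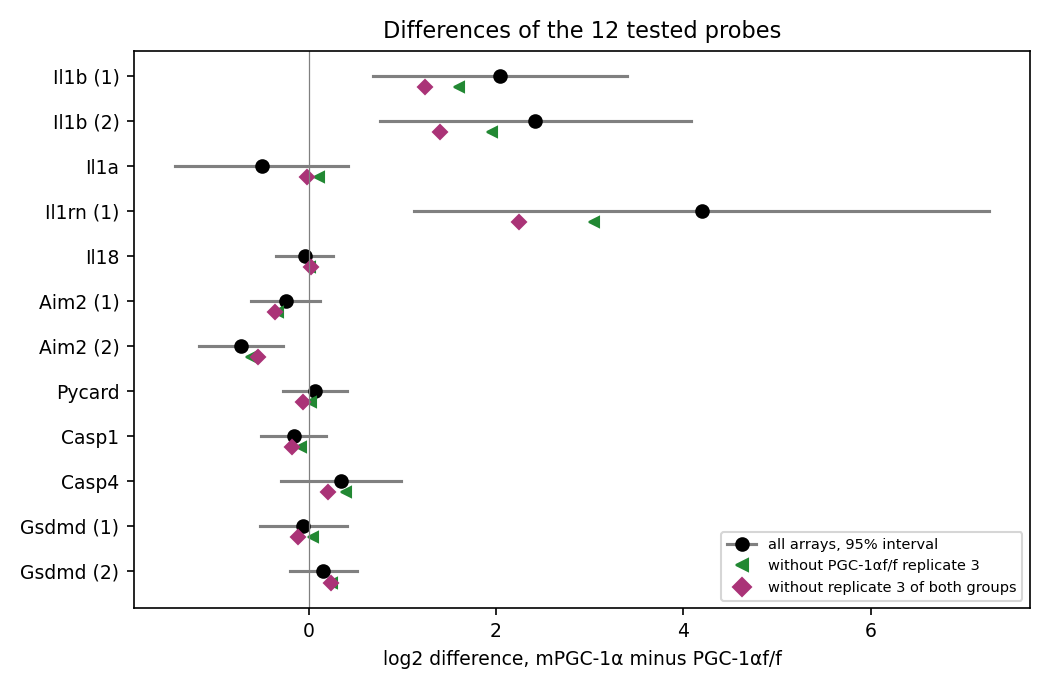
Log2 difference of the 12 tested probes (x axis, mPGC-1α minus PGC-1αf/f), with 95% intervals from limma over all arrays, and the same difference without PGC-1αf/f replicate 3 (triangles) or without replicate 3 of both groups (diamonds). The Il1b and Il1rn differences stay above 0 and shrink without these arrays, to 1.24, 1.40 and 2.25 without both, and that of Il1a moves to either side of 0.

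Il1a, the neighbour of Il1b on chromosome 2, did not have a higher mean in mPGC-1α microglia. Its probe (A_52_P100926) gave 0.32 and 1.54 in PGC-1αf/f replicates 1 and 3 and 0.19, 0.40 and 0.69 in mPGC-1α microglia. The spot of PGC-1αf/f replicate 2 was marked as an outlier by the scanner software and is missing from the fit. The groups overlapped, with the highest value in a control array. The difference was -0.50 (SE 0.38, 95% interval -1.43 to 0.42; limma adjusted p 0.522). It turned to 0.11 without PGC-1αf/f replicate 3, was -0.018 without replicate 3 of both groups and -1.12 without PGC-1αf/f replicate 1. With the outlier spot kept, PGC-1αf/f replicate 2 was at 0.95.

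To set the cytokine against its neighbour on the same array, the Il1a value was subtracted from that of Il1b. Here the outlier spot of Il1a in PGC-1αf/f replicate 2, missing from the fit above, was kept so that all 6 arrays could be used. The mPGC-1α mean of this quantity was 1.97 and the control mean -0.58, a difference of 2.55. The lowest mPGC-1α array was at 1.497 and the highest control, which rests on the kept spot, at 0.65, so the groups did not overlap. In the same way, Il1b was higher relative to Il18 by 2.08, to Casp1 by 2.20, to Pycard by 1.97 and to Gsdmd by 2.09. An exact permutation test over the 6 arrays gave p = 0.1 (two-sided) for each of these 5 pairs, the smallest p that 3 against 3 allows (adjusted p 0.12 over 6 pairs). The sixth pair, Casp4 relative to Casp1, differed by 0.50 with overlapping groups (exact permutation p = 0.2). These pairs share the Il1b values, and most of each difference is the Il1b difference itself.

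The antagonist gene Il1rn was the least well measured of the tested genes. Its first probe (A_52_P431159) gave -2.99, -1.07 and -5.47 in PGC-1αf/f arrays, and 0.22 and 1.83 in mPGC-1α replicates 1 and 3, with the spot of mPGC-1α replicate 2 marked as an outlier and missing from the fit. It was well above background on 1 of the 3 control arrays and on all 3 mPGC-1α arrays, so it was tested only because of its level in mPGC-1α microglia. The difference was 4.20 (SE 1.25, 95% interval 1.13 to 7.27; limma adjusted p 0.222), and its size depends on 2 control values that were not well above background. With the outlier spot kept, mPGC-1α replicate 2 was at -1.07, level with the highest control and a trace below it, so that the groups overlapped, and the difference was 3.50 (adjusted p 0.229). Without PGC-1αf/f replicate 3 it was 3.05, without replicate 3 of both groups 2.25 and with array weights 2.62. A second Il1rn probe (A_55_P1962400) gave -5.09, -4.88 and -5.32 against -3.65, -4.85 and -2.43. It was well above background only on mPGC-1α replicate 3, and was not tested.

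Il18 encodes the other cytokine that caspase-1 matures. Its probe (A_55_P2732528) gave 1.94, 2.06 and 2.17 in PGC-1αf/f arrays and 2.07, 1.97 and 2.004 in mPGC-1α microglia. The groups overlapped and all 6 values lay within a narrow range. The difference was -0.041 (SE 0.13), with a 95% interval from -0.34 to 0.26 (limma adjusted p 0.890).

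Il1a, Il1b and Il1rn all lie on chromosome 2, with Il1rn far from the other two. The bases upstream of their start sites are shown because the neighbours Il1a and Il1b gave unlike differences and Il1rn encodes the antagonist of both. The sequences are the 250 bases before the RefSeq start in GRCm38.p6, read 5′ to 3′ on the gene's strand. Il1b is at chr2:129371140-129371389 (minus strand), Il1a at chr2:129309973-129310222 (minus strand) and the first listed start of Il1rn at chr2:24336610-24336859 (plus strand). Capitals mark matches, on either strand, to a TATA box (TATAAA), an AP-1 element (TGANTCA) or GAGGAA, the core of a site for PU.1, the ETS factor of the macrophage lineage, with its flank.
Il1b: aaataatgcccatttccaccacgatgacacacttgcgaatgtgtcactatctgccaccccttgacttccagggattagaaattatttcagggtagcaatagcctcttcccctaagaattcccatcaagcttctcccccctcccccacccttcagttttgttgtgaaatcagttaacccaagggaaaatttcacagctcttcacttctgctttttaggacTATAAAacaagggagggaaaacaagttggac
Il1a: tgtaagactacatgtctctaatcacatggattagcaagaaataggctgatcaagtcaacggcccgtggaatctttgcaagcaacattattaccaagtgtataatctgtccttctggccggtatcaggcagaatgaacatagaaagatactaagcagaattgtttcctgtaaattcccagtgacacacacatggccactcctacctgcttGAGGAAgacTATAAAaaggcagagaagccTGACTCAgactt
Il1rn: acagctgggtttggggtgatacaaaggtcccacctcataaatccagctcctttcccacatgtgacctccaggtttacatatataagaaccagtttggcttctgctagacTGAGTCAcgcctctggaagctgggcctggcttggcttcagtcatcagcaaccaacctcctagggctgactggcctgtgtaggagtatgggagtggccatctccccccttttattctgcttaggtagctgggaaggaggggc
The Il1b and Il1a windows each held a TATA box, whose first base was at -31 and -32 from the start, and 12.4% of the 32851 RefSeq promoter windows of this length held one. Il1a in addition had an AP-1 match at -12 and GAGGAA at -41, and Il1rn an AP-1 match at -141, where 6.75% and 23.3% of all windows held TGANTCA and GAGGAA. An NF-kB consensus element was matched in 7.25% of all windows and an interferon-stimulated response element in 2.98%, and these 3 windows held neither. Such a match is a string of letters and not a measured site. Of the 10 genes, 9 had promoter entries, with 13 windows in all, and among these each of the overlapping Casp4 windows held 3 NF-kB matches, a pair of which overlap, and the second Nlrp3 start held 1. A long noncoding RNA, Il1bos, overlaps the start of Il1b on the opposite strand. The strand that the labelled product of each probe represents was not examined.

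Next, the inflammasome sensors were compared. Nlrp3, which responds to potassium loss and mitochondrial damage, was close to the detection limit. Its probe (A_52_P650540) gave -3.82, -3.88 and -3.45 in PGC-1αf/f arrays and -4.30, -3.79 and -5.89 in mPGC-1α microglia. It was well above background only on PGC-1αf/f replicate 3 and mPGC-1α replicate 2, the groups overlapped, and it was not tested. The highest value was that of a control array, and a decrease could not be measured at this signal.

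Aim2, the sensor of DNA in the cytosol, had 2 probes, both well above background everywhere. The brighter one (A_66_P134497) gave 1.503, 1.40 and 1.18 in PGC-1αf/f arrays and 0.93, 1.26 and 1.17 in mPGC-1α microglia. These groups overlapped, with the mPGC-1α arrays at the lower end (difference -0.24, SE 0.16, limma adjusted p 0.446). The second (A_55_P2080130) gave -0.37, 0.00011 and 0.15 against -0.90, -0.55 and -0.93. Here all mPGC-1α arrays lay below all controls. The difference was -0.72 (SE 0.19, 95% interval -1.16 to -0.27), 1.65-fold lower (limma adjusted p 0.176). Within slide columns 1 and 2 it was -0.53 and -0.55. Both probes carry the same transcript accession, and their intervals overlap.

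The adaptor and the enzymes showed small differences. Pycard (A_51_P438821) gave 3.61, 3.62 and 3.50 in PGC-1αf/f arrays and 3.45, 3.67 and 3.82 in mPGC-1α microglia. The mPGC-1α values lay on both sides of the controls, with a difference of 0.067 (SE 0.14, 95% interval -0.27 to 0.41; limma adjusted p 0.834). This sign turned with the scaling, to -0.066 with a median shift and -0.059 with quantile normalization.

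Casp1 (A_55_P1990944) gave 2.56, 2.46 and 2.73 against 2.32, 2.36 and 2.60. The mPGC-1α values tended to the lower side but overlapped the controls, and the difference was -0.16 (SE 0.15, 95% interval -0.50 to 0.19; limma adjusted p 0.597). It was -0.085 without PGC-1αf/f replicate 3 and -0.25 without mPGC-1α replicate 3. Casp4, the mouse gene for caspase-11, which binds cytosolic lipopolysaccharide and cuts gasdermin D without a sensor complex, gave 0.80, 1.63 and 1.38 against 1.28, 1.56 and 2.00 (A_55_P2091461). The lowest value was a control and the highest an mPGC-1α array, with overlap between. Its difference was 0.35 (SE 0.27, 95% interval -0.29 to 0.98; limma adjusted p 0.529), and 0.15 without mPGC-1α replicate 3 or 0.11 without PGC-1αf/f replicate 1.

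Gsdmd, whose product forms the pore through which mature IL-1β leaves the cell, gave 2.48, 2.70 and 2.90 against 2.39, 2.58 and 2.96 at its brighter probe (A_51_P172231). The groups overlapped over nearly their whole range. The difference was -0.054 (SE 0.20, 95% interval -0.52 to 0.41; limma adjusted p 0.907). Its second probe (A_66_P106903) gave -1.54, -1.36 and -1.16 against -1.10, -1.32 and -1.16, and also overlapped. That probe differed by 0.16 (SE 0.15, limma adjusted p 0.611), so the 2 probes had opposite signs, both within the error. For Il18, Pycard, Casp1 and Gsdmd the intervals exclude a 2-fold difference, whereas those of Il1b and Il1rn are wide.

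Then, other genes of the same pathway were examined, in 6 lists with 55 genes. All 55 had a probe, 43 were tested and 41 of them kept a value from each array, and 34 of these 41 exceeded background everywhere. Of the 41 genes, 23 were higher and 18 lower in mPGC-1α microglia, beside 54.1% higher among all genes, with a median difference of 0.13 beside 0.028 for all genes. Limma placed 0 past the threshold over all probes (smallest adjusted p 0.0970). Unadjusted p-values under 0.05 were found for 11 of 41 genes, 10 higher and 1 lower, beside 13.9% of all genes by the brightest probe. Groups did not overlap for 10 genes that were higher and 2 that were lower, beside 12.2% and 10.8% of all genes. The remaining 7 of the 41 genes were tested only through their level in mPGC-1α microglia and all had higher means there, so these counts and medians are descriptions. Among the 34 genes above background everywhere, the groups did not overlap for 6 that were higher and 2 that were lower.

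**Figure D3:**
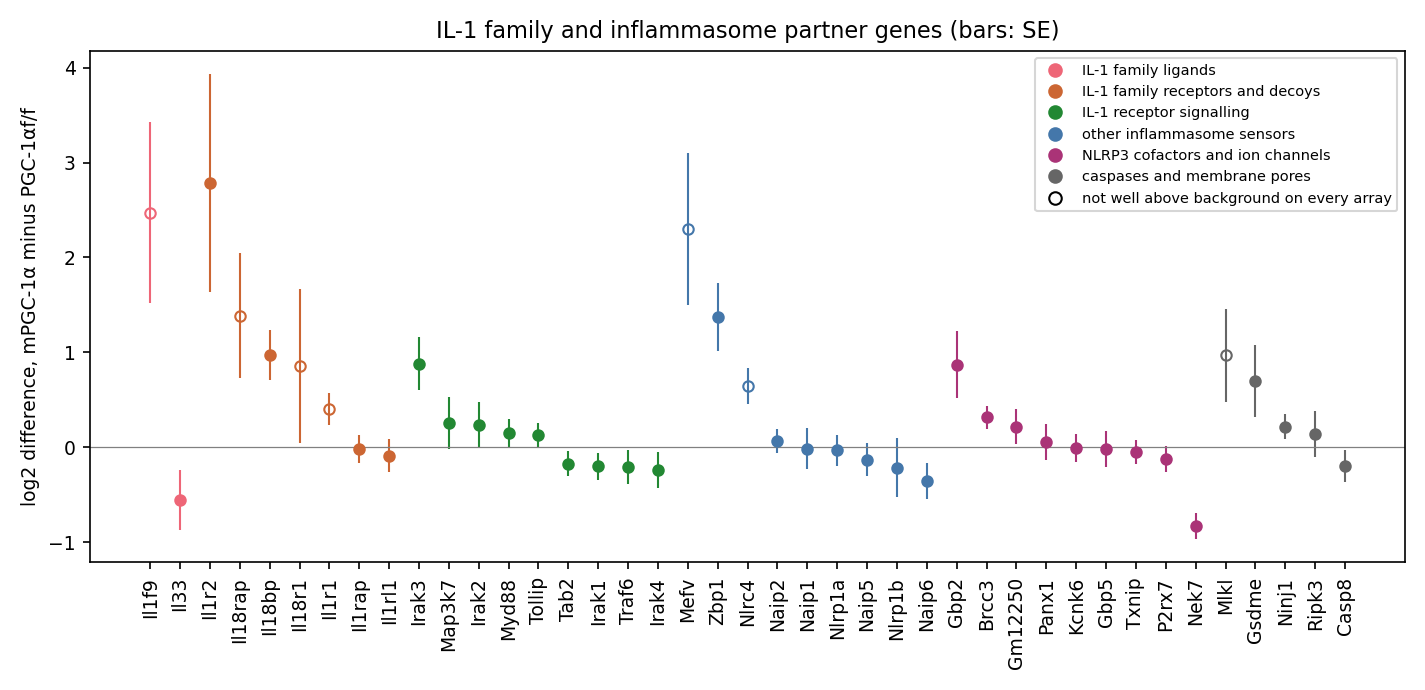
Log2 difference (y axis, mPGC-1α minus PGC-1αf/f) of the 41 pathway genes with values on all arrays, grouped by role and ordered by size, with bars for the SE from limma. Open circles are genes not well above background on every array. The receptor and decoy genes reach the highest value, 2.78 for Il1r2, and Nek7 has the lowest, -0.83.

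In the list of receptors and decoys, 5 of 7 genes were higher, 3 of them at an unadjusted p under 0.05, beside 54.1% and 13.9% of all genes. Of these 5, Il18r1, Il18rap and Il1r1 were tested only through their level in mPGC-1α microglia, so the count is no measure of a lean of the list. Il1r2, a decoy that binds IL-1 without signalling, gave 0.22, 1.43 and -3.54 in PGC-1αf/f arrays and 1.87, 2.09 and 2.50 in mPGC-1α microglia (A_55_P2804650). All mPGC-1α arrays lay above all controls, and the control spread was set by replicate 3, the lowest by far. The difference was 2.78 (SE 1.15, limma adjusted p 0.294), and 1.33 without PGC-1αf/f replicate 3 or 1.16 without replicate 3 of both groups.

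Il18bp, the soluble inhibitor of IL-18, gave -2.17, -1.78 and -2.80 against -1.36, -1.42 and -1.05 (A_52_P577384). The groups did not overlap, and a second probe, well above background on 2 of 3 control arrays and tested only through mPGC-1α microglia, differed by 1.04 (limma adjusted p 0.194). The first differed by 0.97 (SE 0.27, limma adjusted p 0.191), and by 0.58 without replicate 3 of both groups. Il1r1, the signalling receptor for both IL-1 forms, was higher by 0.40 without overlap but was not well above background on every array.

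In the signalling list, 5 of 9 genes were higher and 1 had an unadjusted p under 0.05, shares near the 54.1% and 13.9% of all genes. That gene was Irak3, a kinase homologue that restrains signalling from IL-1 and Toll-like receptors, with -2.59, -1.82 and -2.90 in PGC-1αf/f arrays and -1.74, -1.56 and -1.37 in mPGC-1α microglia (A_52_P386627). The groups lay next to each other without overlap, 0.88 apart in the mean (SE 0.28, limma adjusted p 0.227), and 0.56 without replicate 3 of both groups or 0.48 with array weights. Tab2, an adaptor upstream of NF-kB, lay lower in all mPGC-1α arrays by a small margin (3.29, 3.31 and 3.28 against 2.97, 3.15 and 3.24). Its difference was -0.17 (SE 0.13, limma adjusted p 0.514), and its other probes were lower too, at -0.20 and -0.29. The average over probes gave 0.022, where 1 of the probes lacked a value on a control array.

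Among other sensors, 4 of 9 genes were higher, 3 of them at an unadjusted p under 0.05, beside 13.9% of all genes. Of these 3, Mefv and Nlrc4 were tested only through their level in mPGC-1α microglia, which leaves Zbp1. Ifi204 is outside the 9 because its spot on mPGC-1α replicate 1 was an outlier. It was well above background on every array and higher by 0.98 (SE 0.20, limma adjusted p 0.142). Zbp1, an interferon-inducible sensor of Z-form nucleic acid, gave 0.052, 0.40 and -0.58 against 0.69, 1.41 and 1.89 (A_55_P1994042). All mPGC-1α arrays lay above all controls, by 1.37 in the mean (SE 0.36, limma adjusted p 0.178), and by 0.82 without replicate 3 of both groups. A second Zbp1 probe differed by 1.20 with no overlap (limma adjusted p 0.155). Besides Il1r1, the other 3 genes that were higher without overlap but only partly above background were Il1f9 (the gene for IL-36γ) at 2.47, Mefv (pyrin) at 2.30 and Nlrc4 at 0.65. Il1f9 and Mefv were well above background on 1 of 3 control arrays and Nlrc4 and Il1r1 on 2 of 3, so the sizes depend on control values near background. These 4 are named here because of their values.

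Among cofactors of NLRP3 the signs were mixed, with 4 of 9 genes higher and a median of -0.0062. Nek7, a kinase that NLRP3 needs for assembly, had the smallest adjusted p of all pathway genes. Its probe (A_66_P108499) gave -0.998, -1.24 and -1.01 in PGC-1αf/f arrays and -2.01, -1.78 and -1.95 in mPGC-1α microglia. Each group was tight and the groups lay clearly apart, with a difference of -0.83 (SE 0.14), 1.78-fold lower (limma adjusted p 0.0970). With array weights the difference was -0.68 and passed the threshold (adjusted p 0.0389), and with arrays left out it ranged from -0.91 to -0.77 with adjusted p from 0.131 to 0.325. A brighter Nek7 probe (A_51_P295442) kept a value on 2 control arrays only, 1.65 and 2.68, after outlier spots were removed, and could not be tested. The average over probes gave -1.88 (adjusted p 0.290). It adds the brighter probe to 2 control arrays and to no mPGC-1α array, so it is no estimate of the Nek7 difference. Brcc3, a deubiquitinase of NLRP3, gave 0.99, 0.96 and 0.90 against 1.29, 1.21 and 1.30 (A_51_P373461). It lay higher in all mPGC-1α arrays by 0.31 (SE 0.12, limma adjusted p 0.271), with 0.18 under a median shift, while its dimmer probe differed by 0.078. Of 5 caspase and pore genes 4 were higher, 0 at an unadjusted p under 0.05.

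Moreover, markers of other cell types and of an early stress response were read on the same arrays. Neutrophils also transcribe Il1b, Il1rn and Il1r2. Of 14 neutrophil genes, 13 had complete values and 9 exceeded background on every array, S100a8 among them. The others of the 13, Cxcr2, Elane, Mmp9 and Mpo, were tested only through their level in mPGC-1α microglia. Of the 13 genes, 12 were higher, beside 54.1% of all genes, and 0 had an unadjusted p under 0.05. In units of the 75th percentile, the summed linear signal of the 13 was 132, 156 and 30.7 in PGC-1αf/f samples. In mPGC-1α samples it was 156, 164 and 183. The low value was again PGC-1αf/f replicate 3, and the other 2 controls were at or near the mPGC-1α level. Of 12 monocyte genes, 11 had complete values and 10 were higher, beside 54.1% of all genes. Cd177, F10 and Fn1 among them were tested only through their level in mPGC-1α microglia. The sum of the 11 ranged from 49.4 to 89.7 in PGC-1αf/f and from 89.1 to 96.7 in mPGC-1α samples. It is weighted to the brightest gene, Ms4a4c, which differed by -0.016. The mean log2 signal of the 11 did not overlap, at 0.48, 0.89 and -1.78 in PGC-1αf/f and 0.997, 1.30 and 1.02 in mPGC-1α. Lymphocyte genes were higher in 6 of 7 (summed signal 6.29 to 9.93 in PGC-1αf/f and 7.10 to 12.3 in mPGC-1α samples), endothelial and mural genes in 6 of 6 (1.71 to 4.63 and 3.18 to 6.94) and border macrophage genes in 8 of 9, with 0 of these higher at an unadjusted p under 0.05. Oligodendrocyte genes went the other way, with 7 of 7 lower, and sums of 14.3 to 17.1 and 9.21 to 11.9 that did not overlap. Of the 7, 4 had an unadjusted p under 0.05, beside 13.9% of all genes. Among these 4, Mog and Opalin were tested only through their level in PGC-1αf/f microglia. Neuron genes were higher in 5 of 6 and astrocyte genes in 3 of 6. The part of these cells in the Il1b, Il1rn and Il1r2 values was not tested, and in a bulk sample more cells of a type and more RNA per cell cannot be told apart.

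Immediate-early genes, which are induced within minutes and also during cell isolation, differed between the groups in their summed signal. Of 22 genes, 17 had complete values and 16 were higher, 9 at an unadjusted p under 0.05 (beside 13.9% of all genes) and 2, Fosb and Dusp1, past the threshold. Among the 9, Hspa1a and Hspa1b were tested only through their level in mPGC-1α microglia. Neither Fosb nor Dusp1 passed the threshold with the replicate block or without mPGC-1α replicate 3. Their summed signal was 49.3, 48.0 and 53.3 in PGC-1αf/f and 77.6, 81.6 and 81.9 in mPGC-1α samples. The part of this response in the Il1b difference was not tested.

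**Figure D4:**
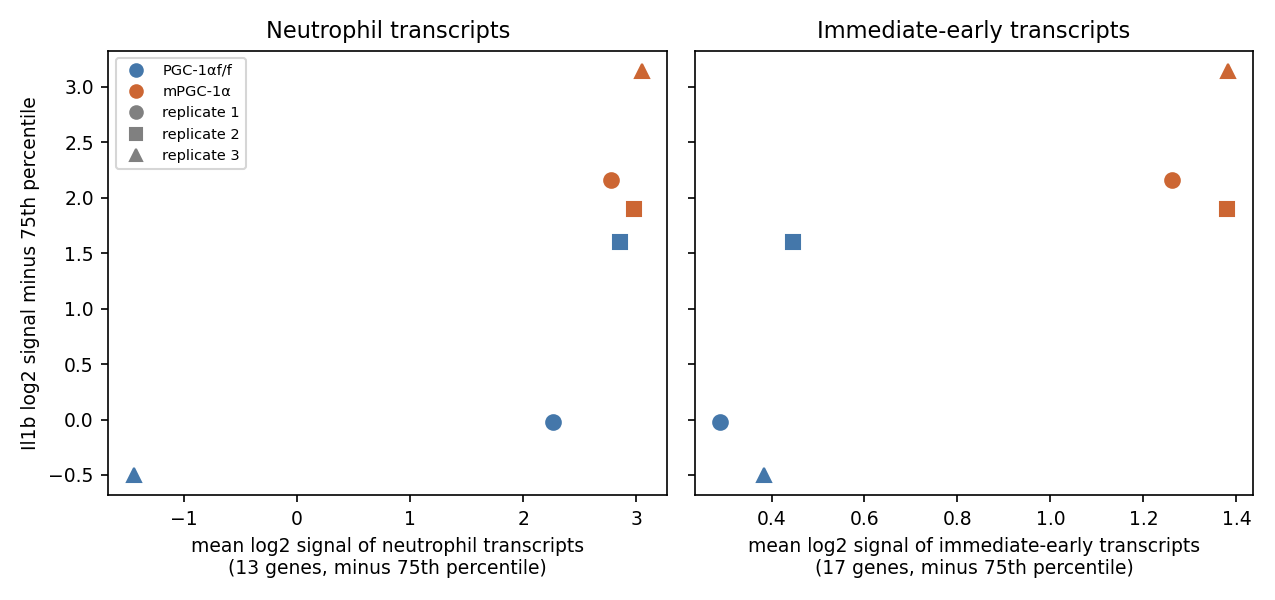
Il1b log2 signal on each array (y axis, brighter probe) against the mean log2 signal of 13 neutrophil genes (left) and of 17 immediate-early genes (right), with blue for PGC-1αf/f, orange for mPGC-1α and the marker shape for the replicate number. On the left, PGC-1αf/f replicate 3 lies far to the low side at -1.45 while the other arrays lie between 2.26 and 3.05, and on the right the groups lie at 0.29 to 0.45 and at 1.26 to 1.38.

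Finally, genes with a pattern like that of Il1b were listed. Over the 6 arrays and 11564 genes, the highest Pearson correlations with its brighter probe were those of Csf2rb (r = 0.998), Mad2l1 (0.995), Hpcal1 (0.993), Alyref (0.992) and P2ry2 (0.987). Csf2rb encodes the shared receptor chain for GM-CSF, IL-3 and IL-5, and P2ry2 a receptor for extracellular ATP and UTP. Their log2 differences were 0.31, 0.40, 0.37, 0.16 and 1.48, so 4 of the 5 follow the order of the arrays with a much smaller range. Among the other inflammasome genes, Casp4 was most like Il1b (r = 0.718, rank 1460), followed by Pycard (0.522) and Gsdmd (0.051), and Il18, Aim2 and Casp1 had r of -0.32, -0.42 and -0.52. The second Aim2 probe had r of -0.77. The 6 points share the slide and the group structure, and with so many genes high values of r are frequent, so this is a description only.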

How the data were processed

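Expression was measured in P2RY12-selected mouse microglia on 6 arrays, 3 of each genotype, with groups and replicate numbers from the labels. For the arrays, the authors amplified total RNA to cRNA and made cDNA from it labelled with Cy5. The deposited scanner files give, per spot, an intensity after background subtraction and spatial detrending by the Agilent software, with quality calls, and the series table holds the same intensity without normalization between arrays. The methods name GeneSpring for normalization and no test per gene. The number of arrays limits the precision.

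Control spots and spots called outliers were left out. From log2 intensity the 75th percentile of its array was subtracted, and spots of a probe were averaged. Probes well above background (at least 0.5 of spots) on all arrays of 1 group or both were tested with limma 3.58.1 (lmFit, eBayes, two-sided, Benjamini-Hochberg, threshold 0.05) in R 4.3.3 with data.table (version 1.17.8), and the fit was tried on simulated data. A p-value was obtained for 25257 of 25333 such probes. Where a gene is given once, its brightest probe with 6 values was used. Names came from RefSeq (GRCm38.p6) by accession, and the scanner headers name another build, so array coordinates are not given. Promoter windows are RefSeq entries. Plots used Python 3.11.15, matplotlib 3.10.9, pandas 2.3.3 and numpy 2.4.6.

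All members were named with every probe. Of the pathway lists, up to 5 genes with the highest and 5 with the lowest difference were named among those well above background on all arrays with groups that did not overlap, together with Ppargc1a and the 5 genes most correlated with Il1b. The members, lists and rules were chosen with earlier results of these data known. Alternatives were other normalizations and filters, the replicate block, array weights, the slide column as a random block, averaged probes and each array left out. Keeping outlier spots, leaving out replicate 3 of both groups and the values within slide columns were chosen after seeing the data.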

Additional observations from a re-analysis of the deposited data

How the results depend on the processing

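Across 12 changes of processing and 7 runs with arrays left out, the count of IL-1 and inflammasome probes past the threshold was 0, except with the deposited table without normalization, where it was 3 (both Il1b probes and the first Il1rn probe, adjusted p 0.000334, 6.65e-06 and 4.34e-14). For the pathway genes the count was 0, except 1 with array weights (Nek7) and 3 with the deposited table (Il1f9, Mefv and Il1r2). With arrays left out both counts ranged from 0 to 0. The difference of the first Il1b probe lay between 1.02 and 2.66, of the second between 1.16 and 3.11, of Il1rn between 2.25 and 5.25 and of the second Aim2 probe between -0.87 and -0.54, each with its sign in every run that gave it a value (18 of 19 for the last 3 probes). At an unadjusted p under 0.05 the 4 member probes became 1 with array weights and 2 without replicate 3 of both groups, and the 11 pathway genes became 5 to 14. Causes of these changes were not tested.

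Signs turned for Il1a, Il18, Pycard, the brighter Gsdmd probe and, only in the average over its probes, Tab2. Leaving out PGC-1αf/f replicate 3 gave 0.11 for Il1a, 0.017 for Il18 and 0.050 for the brighter Gsdmd probe. Without replicate 3 of both groups Il18 was at 0.023 and Pycard at -0.056, and Pycard was at -0.020 without mPGC-1α replicate 3, -0.066 with a median shift and -0.059 with quantile normalization. Gsdmd was at 0.074 without mPGC-1α replicate 1 and 0.052 with probes averaged, where Tab2 was at 0.022. The median shift moved the median of all probes to -0.14, and relative to it Pycard stayed above 0. With arrays left out, Il1a ranged from -1.12 to 0.11, Il18 from -0.099 to 0.023, Gsdmd from -0.21 to 0.074, Pycard from -0.056 to 0.17, Casp1 from -0.25 to -0.085, Casp4 from 0.11 to 0.53, the brighter Aim2 probe from -0.36 to -0.15 and the dimmer Gsdmd probe from 0.062 to 0.26.

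The count over all probes, 20, was 754 with array weights, 456 with the deposited table, 138 with slide column as random block, 11 with quantile normalization, normexp or a median shift, 9 without a filter, 8 with probes averaged, 4 under a filter requiring all 6 arrays, and 0 to 25 with arrays left out (3 without replicate 3 of both groups). Leaving out mPGC-1α replicate 3 gave 0 by limma (unadjusted p under 0.05: 1325 higher, 2010 lower), leaving out mPGC-1α replicate 2 gave 1, and leaving out PGC-1αf/f replicate 2 gave 2. Samples with the same replicate number had correlated deviations of 0.139, 0.127 and 0.0187, and the last was too low to treat the numbers as pairs. The replicate block gave 0 (unadjusted p under 0.05: 2393 higher, 2304 lower), with 2.04 and 2.42 for the Il1b probes and 5.25 for Il1rn, and changed no call among members. Signal near background limits Nlrp3 and Il1rn.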
